A study of Mus musculus with 12 samples.

Results

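The kinesin gene family was examined in mouse mammary tumours and in mammary epithelium. Its members were the genes whose symbol is Kif followed by a number and an optional letter, with at least 10 counts summed over the 12 libraries, which gave 36 of the 54658 genes in the files. Another 2 symbols matched but stayed below that minimum: Kif2b, at 0 counts in every library, and Kif12, at 7 counts. The least abundant members above it were Kif28 at 32 counts and Kif6 at 247. By their known roles, 11 members were grouped as mitotic, 13 as transport, 6 as acting in cilia or hedgehog signalling and 6 as other.

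RNA sequencing covered 9 mammary tumours of genotype Trp53R245W/+ and 3 samples of enriched epithelium, genotype WT, from mammary glands of the same cohort. The R245W change is a missense change in p53 that the series describes as somatic. All were from female C57BL/6J X BALB/cJ F1 hybrid mice, whose age none of the sources used here gives. The labels do not say that each sample came from another mouse, so p-values measure the spread between these samples. Genotype and tissue state changed together, and so did the title prefix of the libraries, so effects of the p53 change, of tumour state and of a batch cannot be told apart. Tumours are called by their label numbers 1, 4, 5, 14, 17, 20, 21, 24 and 27, and epithelium libraries by 1, 2 and 3.

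Kinesins are motor proteins that use ATP to move along microtubules or to take their ends apart. Mitotic kinesins build the spindle, move chromosomes and complete cytokinesis, and in dividing cells their genes are switched on mainly in G2 and M phase. Transport kinesins carry vesicles, organelles and RNA in cells of all kinds, dividing or not, and several serve mainly in neurons.

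Gene counts ran from 19695318 to 33600076 per library, so that 3 counts, the limit that a count of 0 allows, stood for 0.0893 to 0.152 CPM (counts as a share of the total gene count of their library, scaled to the usual common total). Tumour 4 stood apart, where Rn7sk, a small nuclear RNA, took 22.6% of gene counts and 52.0% of alignments were not unique. Alignments outside genes made up 39.9% to 41.5% in epithelium and 8.08% to 32.3% in tumours, without overlap. Trp53 RNA lay between 41.7 and 45.7 CPM in epithelium and between 18.5 and 80.9 CPM in tumours, which does not check the missense change. The 10 epithelial markers (all above 0 in every library, Epcam and Krt8 among them) summed to 2322 to 3119 CPM in epithelium and 1467 to 7242 CPM in tumours. At edgeR's adjusted p under 0.05, 2 of them (Epcam and Cdh1) were higher in tumours and 1 (Esr1) was lower. Of all genes, 8.89% were higher and 11.4% lower. Levels below are CPM scaled by the trimmed mean of M values, and each log2 fold change compares tumours with epithelium (positive where tumours were higher), followed by its standard error (SE) and edgeR's p, adjusted over 21456 genes. That scaling divides by a factor of 0.557 in tumour 4 and of 0.896 to 1.19 in the other libraries. On the scaled levels the limit of 3 counts in tumour 4 is therefore above the range given for unscaled CPM.

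The mitotic kinesins were higher in the tumours. In all 11 members every tumour lay above every epithelium library, as it did in 10.2% of all genes tested, and 10 of the 11 passed the test as higher, against 8.89% of all genes. None was lower, and the exception, Kif18a, had an adjusted p of 0.0565. Log2 fold changes of the 11 ran from 1.38 to 3.59 with a median of 3.13, where the median of all genes was 0.17. Kif2a, a depolymerase of spindle poles and neurons, was grouped with the other members. Its groups overlapped and it did not pass (-0.23, SE 0.38, adjusted p = 0.699). The classes were chosen with earlier results of these data known. In bulk samples fewer cells of a type and less RNA per cell cannot be told apart, here and below. Summed markers of T and NK cells (659 to 717 CPM in epithelium, 6.32 to 50.5 CPM in tumours), B cells (699.9 to 997 and 2.07 to 68.9 CPM), endothelium (889 to 1135 and 195 to 776 CPM) and adipocytes (510 to 675 and 56.2 to 168 CPM) were below every epithelium library in all 9 tumours. Those of macrophages (551 to 599 and 445 to 2400 CPM) were above in 8. Of these lists, in that order, 10 of 10, 8 of 8, 4 of 8, 2 of 7 and 1 of 8 markers were called lower, against 11.4% of all genes, and 3 macrophage markers were called higher. Cd3e, Fcer2a, Adipoq, Lep and Marco were at 0 in at least 1 tumour, and the part of these cells in the mitotic result was not tested. DESeq2 and limma-voom called all 11 higher, against 13.6% and 23.3% of all genes in those tools.

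Among the motors that build the spindle, Kif11 (chromosome 19, 37376403 to 37421859, GRCm38) encodes a motor with heads at both ends that slides opposed microtubules apart and so keeps the spindle bipolar. It was at 13.9, 15.2 and 21.97 CPM in epithelium libraries 1, 2 and 3, and in tumours it ran from 32.1 CPM in tumour 21, with a median of 78.3, to 304 CPM in tumour 24 (log2 fold change 2.60, SE 0.67, adjusted p = 0.0160). The groups did not overlap, and tumours 24 and 20 (162 CPM) were well above the rest. Kif15, a motor that helps hold the bipolar spindle, was at 6.96, 7.79 and 12.8 CPM in epithelium and at 13.4 CPM (tumour 21) to 107 CPM (tumour 24) in tumours, median 32.8 (2.26, SE 0.63, adjusted p = 0.0232). Epithelium library 3 was the highest of its group in both genes, and for Kif15 the lowest tumour lay just above it.

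Members that act on microtubule ends were Kif18a, Kif18b and Kif2c. Kif18a, which dampens the movements of chromosomes at the spindle equator, stood at 10.4, 9.77 and 9.97 CPM in epithelium and at 11.6 CPM (tumour 21) to 47.5 CPM (tumour 4), median 17.9, in tumours (1.38, SE 0.48). It had the smallest log2 difference of the 11, and without tumour 21 it passed the test (adjusted p = 0.0324). Kif18b, which shortens astral microtubules, was at 2.39, 1.88 and 2.98 CPM in epithelium and from 6.93 CPM (tumour 4) to 59.0 CPM (tumour 24), median 26.5, in tumours (3.50, SE 0.62, adjusted p = 0.00187). Tumour 4 was thus the highest tumour in Kif18a and the lowest in Kif18b. Kif2c, the depolymerase that corrects faulty attachments at centromeres, rose from 3.05, 3.20 and 4.09 CPM to between 15.1 CPM (tumour 21) and 77.3 CPM (tumour 20), median 28.1 (3.34, SE 0.56, adjusted p = 0.00122).

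The chromokinesins Kif22 and Kif4 bind chromosome arms. Kif22, which pushes arms towards the spindle equator, was at 3.19, 2.43 and 5.31 CPM in epithelium and at 8.50 CPM (tumour 21) to 171 CPM (tumour 20) in tumours, median 22.04 (3.59, SE 0.96, adjusted p = 0.0200). Its tumours spread 20.2-fold from lowest to highest, the widest spread of the 11, and without tumour 20 the log2 fold change was 2.94. Kif4 (chromosome X, 100625737 to 100727214), which also organises the central spindle, was at 4.47, 4.73 and 6.49 CPM in epithelium and at 19.6 CPM (tumour 21) to 88.7 CPM (tumour 24), median 37.7, in tumours (3.13, SE 0.49, adjusted p = 0.000792). Its lowest tumour was well clear of the highest epithelium library.

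Cytokinesis members were Kif14, Kif20a, Kif20b and Kif23. Kif20a, which carries the chromosomal passenger complex to the central spindle, was at 7.62, 7.86 and 9.06 CPM in epithelium and at 38.8 CPM (tumour 21) to 189 CPM (tumour 24), median 80.1, in tumours (3.54, SE 0.47). Of the mitotic members it had the smallest adjusted p (0.000276) and the smallest spread among tumours (SD 0.65 on the log2 scale). Kif14, which recruits citron kinase to the cleavage furrow, rose from 2.46, 2.47 and 3.79 CPM to between 11.9 CPM (tumour 21) and 74.3 CPM (tumour 24), median 23.6 (3.28, SE 0.62, adjusted p = 0.00270). Kif23, the motor of the centralspindlin complex, was at 10.5, 10.3 and 15.6 CPM in epithelium and at 26.3 CPM (tumour 21) to 113 CPM (tumour 20), median 39.0, in tumours (2.23, SE 0.53, adjusted p = 0.0110). Kif20b, which acts late in abscission, was at 17.1, 17.8 and 19.5 CPM in epithelium and at 27.4 CPM (tumour 21) to 129 CPM (tumour 24), median 56.7, in tumours (1.90, SE 0.49, adjusted p = 0.0161). Both groups of values stayed apart in all 4 genes.

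**Figure D1:**
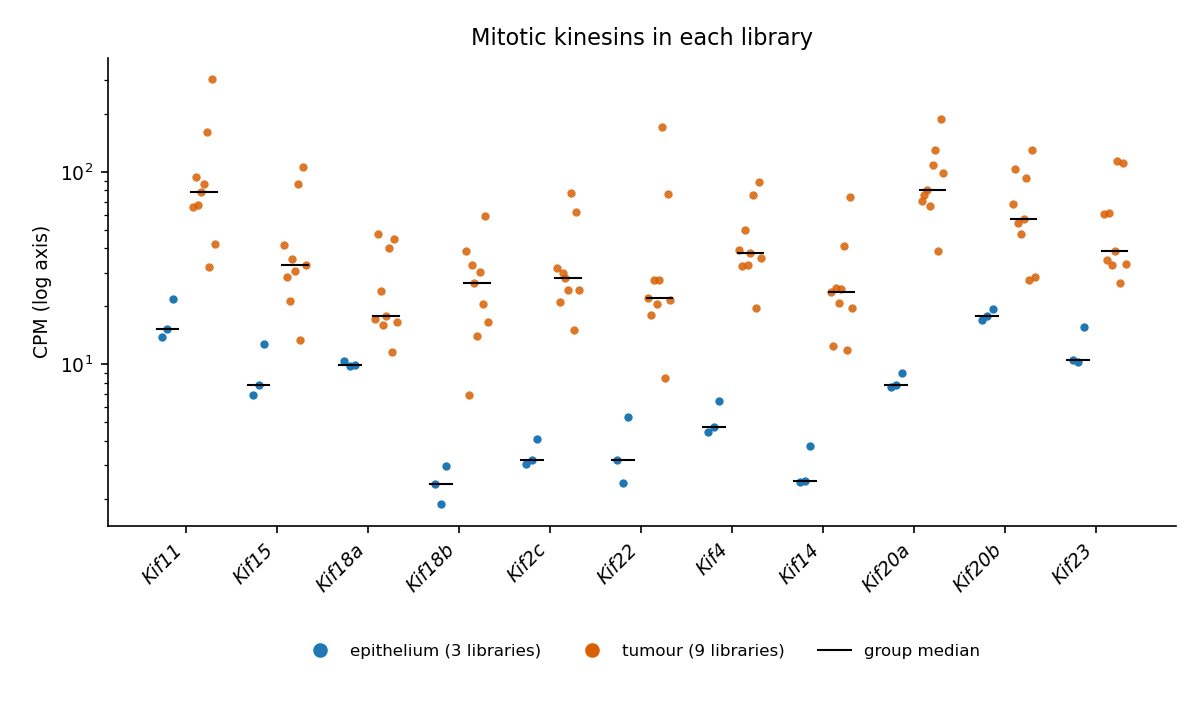
CPM on a log axis of the 11 mitotic kinesins, with 3 epithelium libraries in blue, 9 tumours in orange and group medians as black lines. In every gene the lowest tumour lies above the highest epithelium library, from Kif15, where 13.4 CPM in tumour 21 is close to 12.8 CPM in epithelium library 3, to Kif20a, where 38.8 CPM is far from 9.06 CPM.

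The same few tumours stood at the ends in most mitotic members. Tumour 21 was the lowest tumour in 10 of the 11 mitotic members and tumour 4 in the other, Kif18b. Tumour 24 was the highest in 7, tumour 20 in 3 and tumour 4 in 1. The test held less well with fewer epithelium libraries: without epithelium library 1, 2 or 3, 5, 5 and 6 members were called higher, when 2.26%, 2.42% and 2.45% of all genes were. Kif14, Kif18b, Kif20a, Kif2c and Kif4 were called in each of these fits, with adjusted p of up to 0.0234, while Kif11, Kif15, Kif20b and Kif22 were called in none of them (adjusted p up to 0.0854, 0.113, 0.0804 and 0.0973). Kif23 was called without epithelium library 3, but not without library 1 or 2 (0.0667 and 0.0652). With a covariate for each library's percentage of alignments outside genes, 2 members, Kif18b and Kif2c, were called, when 0.942% of all genes were called higher, and the median log2 fold change was 3.29. That percentage did not overlap between groups, so here and below this fit can hardly tell its effect from that of the group. Without tumours 20 and 24 together, a choice made after seeing the data, 10 were called, when 8.26% of all genes were called higher, and the median was 2.52.

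The start regions of these genes were read for letters known from genes of G2 and M phase. The cell cycle homology region has the letters TTTGAA, and CCAAT is the box that NF-Y binds. RefSeq windows of GRCm38.p6, from 250 bases before to 50 bases after a start, were at hand for 29 of the 36 members and 27025 genes in all. Kif20a, the mitotic member without a window, and Kif5b could not be read. TTTGAA, on either strand, was in the window of 9 of 10 mitotic members and 1 of 10 transport members (Kif1a), where 20.2% of all genes with a window and 17.9% of all 32851 windows hold it. It was also in 1 of 5 cilium and hedgehog members (Kif27) and 1 of 4 other members (Kif26b). CCAAT, on either strand, was in 6 of 10 mitotic, 3 of 10 transport, 3 of 5 cilium and hedgehog and 1 of 4 other members, against 41.1% of all genes with a window and 37.4% of all windows. Matches of one motif were counted whether or not they overlapped the other.

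In 7 of the 9 mitotic members a TTTGAA lay within 19 bases of the start: at 19 bases before it in Kif11 and Kif15, at 17 before it in Kif22, and at 2, 3, 7 and 19 bases after it in Kif23, Kif18b, Kif20b and Kif4, where the first base of the match is counted and the start base is 0. The nearest match was 103 bases before the start in Kif2c and 228 in Kif14. Both of these windows belong to starts inside the annotated gene. That of Kif14 spans 136467598 to 136467897, where the gene begins at 136466343. That of Kif2c, on the minus strand, spans 117178723 to 117179022, where the gene begins at 117182639. Among the 7, the Kif4 window also lies wholly inside its gene, spanning 100625815 to 100626114 where the gene begins at 100625737. The starts of Kif15 and Kif22 lie inside their genes too, but their windows reach past the annotated beginning. Kif18a, the other mitotic member with a window, had neither set of letters in it. The 7 windows are shown to let their positions be compared, with Kif18a and the transport member Kif3a for contrast, each from 100 bases before the start to the 25th base from it, in the gene's direction. Capitals mark TTTGAA or, where it lies on the other strand, TTCAAA. A match in a window is a description and does not show that a site is used.
Kif11, chr19:37376282-37376406, plus strand: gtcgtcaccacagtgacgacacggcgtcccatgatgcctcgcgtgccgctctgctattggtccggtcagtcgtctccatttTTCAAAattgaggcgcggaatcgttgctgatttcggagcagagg
Kif15, chr9:122950981-122951105, plus strand: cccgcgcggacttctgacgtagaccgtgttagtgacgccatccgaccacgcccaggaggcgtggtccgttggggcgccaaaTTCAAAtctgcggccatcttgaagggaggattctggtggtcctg
Kif22, chr7:127042396-127042520, minus strand: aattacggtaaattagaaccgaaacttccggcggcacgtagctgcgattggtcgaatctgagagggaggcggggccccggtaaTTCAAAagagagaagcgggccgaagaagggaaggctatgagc
Kif23, chr9:61946775-61946899, minus strand: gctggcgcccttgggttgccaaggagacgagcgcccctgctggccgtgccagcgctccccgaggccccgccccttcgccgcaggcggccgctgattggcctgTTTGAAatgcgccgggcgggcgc
Kif18b, chr11:102925100-102925224, minus strand: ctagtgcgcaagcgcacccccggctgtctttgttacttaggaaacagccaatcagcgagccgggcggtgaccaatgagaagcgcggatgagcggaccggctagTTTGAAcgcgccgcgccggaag
Kif20b, chr19:34922258-34922382, plus strand: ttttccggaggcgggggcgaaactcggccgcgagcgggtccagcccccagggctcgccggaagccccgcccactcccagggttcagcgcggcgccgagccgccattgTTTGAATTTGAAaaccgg
Kif4, chrX:100625965-100626089, plus strand: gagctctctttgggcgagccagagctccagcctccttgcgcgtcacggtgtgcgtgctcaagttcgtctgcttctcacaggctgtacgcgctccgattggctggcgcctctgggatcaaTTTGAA
Kif18a, chr2:109280638-109280762, plus strand: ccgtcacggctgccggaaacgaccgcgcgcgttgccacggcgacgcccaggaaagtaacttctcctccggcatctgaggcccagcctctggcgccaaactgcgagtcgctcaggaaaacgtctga
Kif3a, chr11:53567269-53567393, plus strand: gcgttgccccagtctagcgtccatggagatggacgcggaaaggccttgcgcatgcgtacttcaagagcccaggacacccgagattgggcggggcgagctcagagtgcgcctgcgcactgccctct

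The transport kinesins showed no common shift. Of 13 members, all tested, 1 was higher (Kif3a), 1 was lower (Kif13b) and 11 did not pass, against 20.3% of all genes called in either direction (8.89% higher and 11.4% lower). Their median log2 fold change was 0.06, below the 0.17 of all genes, and single values ran from -1.37 to 0.93. DESeq2 called the same counts, 1 higher and 1 lower, where 26.4% of all genes passed (13.6% higher and 12.8% lower). Limma-voom called 1 higher and 3 lower, where 49.6% passed (23.3% higher and 26.2% lower).

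Kinesin-1 is the motor that carries mitochondria, vesicles and RNA on its heavy chains Kif5a, Kif5b and Kif5c, of which Kif5b is found in most tissues and the others mainly in neurons. Kif5b was at 278, 265 and 275 CPM in epithelium and at 229 CPM (tumour 24) to 495 CPM (tumour 27), median 250, in tumours (log2 fold change 0.06, SE 0.27, adjusted p = 0.885). The epithelium values lay within the tumour range, where tumour 27 and tumour 5 (364 CPM) were above the rest and the other 7 were below every epithelium library. Kif5c was at 41.4, 37.2 and 114 CPM in epithelium and at 2.89 CPM (tumour 1) to 82.9 CPM (tumour 27), median 14.4, in tumours (-1.37, SE 0.73, adjusted p = 0.192). Epithelium library 3 was high among its group, and without tumour 27 Kif5c passed the test (-1.87, adjusted p = 0.0472). Kif5a stayed between 0.365 and 4.62 CPM in all 12 libraries.

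Kinesin-3 members carry vesicles and endosomes. Kif13b (chromosome 14, 64647265 to 64809617), which moves vesicles rich in the lipid product of PI3 kinase, was at 132, 136 and 126 CPM in epithelium and at 32.02 CPM (tumour 4) to 98.4 CPM (tumour 27), median 73.8, in tumours (-0.92, SE 0.29, adjusted p = 0.0429). Every tumour lay below every epithelium library, as in 14.1% of all genes. Its call was lost without any 1 epithelium library and without tumour 14, 17, 20 or 24 (adjusted p of 0.0524 to 0.144). With the covariate of alignments outside genes its log2 fold change was 0.05. Kif1b, a carrier of mitochondria and synaptic vesicle precursors, was among the steadiest: 194, 221 and 188 CPM in epithelium and 106 CPM (tumour 4) to 223 CPM (tumour 21), median 185, in tumours (-0.15, SE 0.22, adjusted p = 0.650).

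Kif1c, a vesicle motor, was at 119, 120 and 106 CPM in epithelium and at 61.5 CPM (tumour 4) to 500.5 CPM (tumour 1), median 180, in tumours (0.74, SE 0.52, adjusted p = 0.326). Tumour 1 was also the highest tumour for Kif1a, a neuronal motor of synaptic vesicle precursors, with 31.9 CPM where the other 8 tumours had 3.59 to 7.25 CPM and epithelium had 13.1, 20.999 and 15.8 CPM. Those 8 tumours were below every epithelium library, and without tumour 1 the gene passed the test as lower (-1.62, adjusted p = 0.00326), while with it the value was -1.01 (SE 0.60, adjusted p = 0.244). Kif16b, which moves early endosomes, was at 69.3, 67.4 and 94.6 CPM in epithelium and at 73.5 CPM (tumour 21) to 224 CPM (tumour 17), median 79.8, in tumours, so the groups overlapped (0.43, SE 0.36, adjusted p = 0.408). Kif13a, a motor of recycling endosomes, was at 65.3, 70.9 and 68.5 CPM in epithelium but varied 10.2-fold among tumours, from 15.9 CPM (tumour 24) to 163 CPM (tumour 20), and its log2 fold change was 0.02 (SE 0.58).

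Kinesin-2 members pair up to drive transport in the cytoplasm and along the cilium. Kif3a (chromosome 11, 53567379 to 53601967) was at 16.2, 17.6 and 15.6 CPM in epithelium and at 19.2 CPM (tumour 4) to 36.6 CPM (tumour 1), median 33.3, in tumours (0.93, SE 0.24, adjusted p = 0.0177). The groups did not overlap, and Kif3a had the smallest spread among tumours of all members tested (SD 0.28 on the log2 scale). Its call was lost without any 1 epithelium library (adjusted p of 0.0702 to 0.0982). Its partner Kif3b overlapped between groups, with 47.6, 46.2 and 51.7 CPM against 46.8 CPM (tumour 14) to 85.4 CPM (tumour 1), median 58.2 (0.33, SE 0.23, adjusted p = 0.330). Kif3c, a further partner of Kif3a, was at 24.5, 29.3 and 23.4 CPM in epithelium and spread from 5.60 CPM (tumour 14) to 81.6 CPM (tumour 17), median 40.6, in tumours (0.53, SE 0.57, adjusted p = 0.529). Kif17, a motor of dendrites and cilia, was at most 1.89 CPM in any library.

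**Figure D2:**
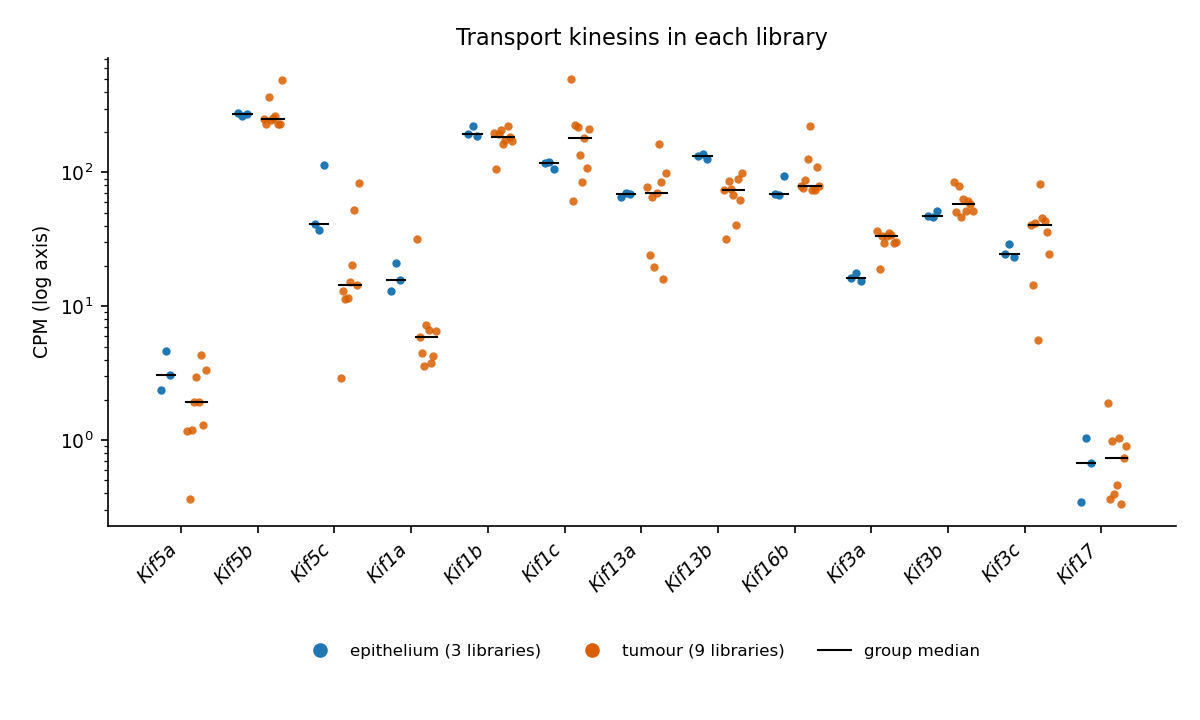
CPM on a log axis of the 13 transport kinesins, with 3 epithelium libraries in blue, 9 tumours in orange and group medians as black lines. The groups separate only in Kif3a, where tumours start at 19.2 CPM above 17.6 CPM, and in Kif13b, where they end at 98.4 CPM below 126 CPM.

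The contrast between both classes shows in the make-up of each library. Mitotic members together held 6.17%, 5.96% and 7.55% of the kinesin counts in epithelium libraries 1, 2 and 3, and 14.2% (tumour 21) to 53.7% (tumour 24), median 25.7%, in tumours. Summed over the transport members the levels were 1002 to 1083 CPM in epithelium and 634 to 1378 CPM, median 1083, in tumours, so that this sum overlapped between groups. Levels of different genes were compared roughly, per kilobase of exon. This length covers the exons of all annotated transcripts of a gene and can exceed that of the transcript expressed. On this measure Kif5b had the highest median of all 36 members in both groups (34.5 and 31.3 CPM per kb), followed by Kif1c. Kif20a went from rank 16 of 36 in epithelium (1.81 CPM per kb) to rank 3 in tumours (18.5 CPM per kb), and Kif11 from rank 15 to rank 5.

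A ratio of 2 genes within a library does not depend on scaling between libraries. The ratio of Kif11 to Kif5b counts was 0.0499, 0.0574 and 0.0799 in epithelium and 0.0852 (tumour 27) to 1.32 (tumour 24), median 0.318, in tumours. Every tumour was above every epithelium library, tumour 27 only just, where Kif5b was at its highest. The mean log2 ratio was -1.73 ± 1.17 (SD, n = 9) in tumours and -4.03 ± 0.35 (SD, n = 3) in epithelium, a difference of 2.30 (exact permutation p = 0.00909, two-sided, over 220 splits, of which the smallest possible p is 0.00455). Leaving out any 1 library gave differences of 2.03 to 2.53 with exact permutation p of 0.00606 to 0.0364.

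**Figure D3:**
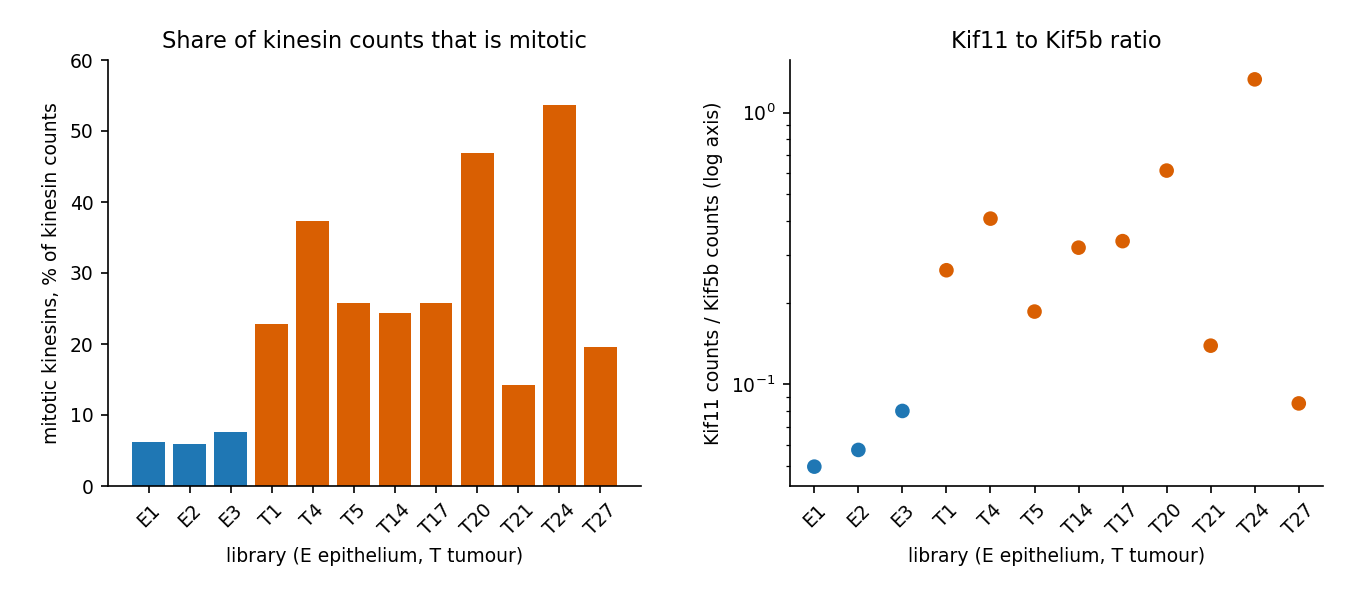
Left, mitotic kinesins as a percentage of all kinesin counts in each library, and right, the ratio of Kif11 to Kif5b counts on a log axis, with epithelium (E) in blue and tumours (T) in orange. The share is at most 7.55% in epithelium and at least 14.2% in tumours, and the ratio of tumour 27 (0.0852) is close to that of epithelium library 3 (0.0799).

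None of the 6 members that act in cilia or hedgehog signalling passed the test, where 20.3% of all genes did. At an unadjusted p under 0.05, 1 was higher and 1 lower, against 19.1% and 16.9% of all genes. DESeq2 called 1 higher (13.6% of all genes), and limma-voom 1 higher and 2 lower (23.3% and 26.2%). Kif24, a centriole motor that restrains cilium growth, came closest: 6.89, 7.51 and 8.72 CPM in epithelium and 8.94 CPM (tumour 4) to 25.1 CPM (tumour 24), median 14.96, in tumours, with no overlap (1.04, SE 0.35, adjusted p = 0.0545). It passed without tumour 4 (0.0269) or 17 (0.0459). Kif7, a regulator of hedgehog signalling at the cilium tip, ranged from 2.42 CPM (tumour 24) to 22.7 CPM (tumour 20) around epithelium values of 5.12, 6.19 and 5.44 CPM (0.54, SE 0.65, adjusted p = 0.578). Kif27, a relative of Kif7, was at 1.14 to 1.18 CPM in epithelium and 0.799 to 4.12 CPM in tumours. Of the motors linked to motile cilia, Kif19a was at 4.62 to 6.42 CPM in epithelium and 1.05 to 6.08 CPM in tumours, Kif9 at 4.38 to 5.38 and 1.46 to 4.87 CPM, and Kif6 at 0.589 to 0.845 and 0.0332 to 1.42 CPM. Kif19a was below every epithelium library in 8 tumours (-1.16, SE 0.47, adjusted p = 0.0963) and passed as lower without tumour 1 (-1.45, adjusted p = 0.0152). Markers of motile ciliated cells summed to 7.02 to 8.83 CPM in epithelium and 4.25 to 32.4 CPM in tumours, with Tekt1 at 0 in libraries of both groups and Dnah5, Dnah9 and Deup1 at 0 in at least 1 tumour, and their part in these values was not tested.

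Of the 6 other members 5 were tested, 1 was higher (Kif26b) and 1 was lower (Kif21b), against 8.89% and 11.4% of all genes. Kif21b (chromosome 1, 136131389 to 136177998), which restrains microtubule growth and is known from neurons and lymphocytes, had the largest fall of the family. It was at 152, 174 and 187 CPM in epithelium, rank 3 of 36 per kilobase there, and at 12.7 CPM (tumour 4) to 60.3 CPM (tumour 21), median 25.8, in tumours (-2.59, SE 0.35, adjusted p = 0.000293). All 9 tumours were far below the epithelium libraries, and the call held in all 12 fits that left out 1 library (adjusted p up to 0.00252), but not with the covariate (-1.21, adjusted p = 0.136). Markers of T and NK cells moved with it: 10 of 10 were lower, against 11.4% of all genes, their sum was 659 to 717 CPM in epithelium and 6.32 to 50.5 CPM in tumours, and Cd3e was at 0 in at least 1 tumour. B cell markers did too, with 8 of 8 lower, a sum of 699.9 to 997 CPM against 2.07 to 68.9 CPM, and Fcer2a at 0 in at least 1 tumour. Their part in the fall of Kif21b was not tested.

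Kif26b (chromosome 1, 178529125 to 178939200), an atypical kinesin without motor activity that acts in Wnt5a signalling, was at 5.02, 6.05 and 4.19 CPM in epithelium and at 8.88 CPM (tumour 20) to 124 CPM (tumour 21), median 24.4, in tumours (3.01, SE 0.86, adjusted p = 0.0263). Tumours 21 and 1 (97.2 CPM) stood above the others, and the call was lost without any 1 epithelium library (adjusted p of 0.0923 to 0.117). Fibroblast markers summed to 3795 to 5781 CPM in epithelium and 1341 to 31819 CPM in tumours. Their sum was below every epithelium library in 7 tumours and above in 2. Of these markers 0 of 7 were called, against 20.3% of all genes in either direction. None was at 0, and the part of fibroblasts was not tested. Kif21a, the close relative of Kif21b, was at 18.4, 25.1 and 18.2 CPM in epithelium and at 32.3 to 172 CPM in 8 tumours, but at 2.26 CPM in tumour 1. It did not pass (1.84, SE 0.83, adjusted p = 0.130), and did without tumour 1 (2.03, adjusted p = 0.0152). Kif2a, a depolymerase of spindle poles and neurons, was at 32.4, 38.5 and 37.2 CPM in epithelium and 17.9 to 64.8 CPM in tumours (-0.23, SE 0.38), unlike its relative Kif2c. Kif26a, related to Kif26b, was at 8.08 to 12.4 CPM in epithelium and 2.50 to 14.6 CPM in tumours. Kif28 was not tested, with 3 counts over the epithelium libraries and 29 over the tumours.

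**Figure D4:**
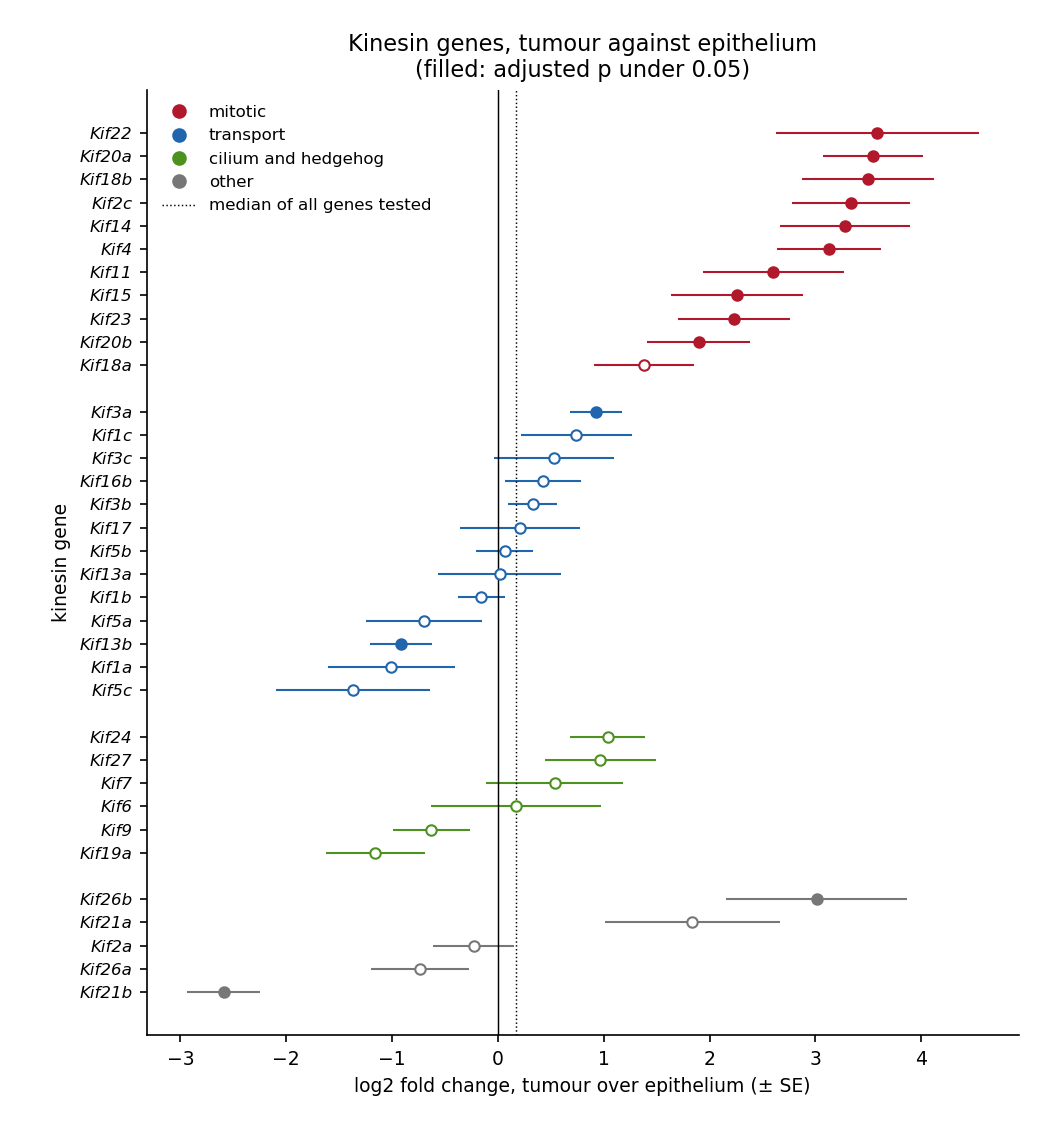
Log2 fold change of 35 kinesins, tumour over epithelium, with SE as bars, coloured by class and filled where the adjusted p was under 0.05; the dotted line is the median of all genes tested, 0.17. The 11 mitotic members lie between 1.38 and 3.59, and the 13 transport members between -1.37 and 0.93.

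Partners of the kinesins were grouped in lists by their roles. Of 20 mitotic partners and regulators, 19 were higher and none lower, against 8.89% and 11.4% of all genes, with a median log2 fold change of 3.01. Birc5, a subunit of the chromosomal passenger complex that Kif20a carries, was at 3.01, 3.30 and 4.73 CPM in epithelium and at 15.8 to 80.5 CPM in tumours, and Kntc1, a kinetochore protein gene, at 4.19, 5.32 and 6.69 CPM and at 19.7 to 79.9 CPM. Of 11 kinesins named otherwise and kinesin-1 light chains, 5 were higher (Cenpe, Kifc1, Kifc3, Kifc5b and Klc3) and none lower, beside the same shares of all genes. Cenpe, the kinetochore kinesin, rose from 7.79, 11.3 and 13.9 CPM to 39.4 to 172 CPM (3.03, SE 0.48, adjusted p = 0.000878), and Kifc1, a minus-end motor of the spindle, from 2.56, 2.50 and 2.94 CPM to 6.84 to 38.6 CPM. Reads of Kifc1 and its near copy Kifc5b can be split between them, so each of these is uncertain.

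Counts in lists tied to transport are read against the 8.89% of all genes called higher and 11.4% called lower, and those of cargo adaptors and dynein are not above these shares. Of 18 cargo adaptors and regulators tested, 1 was higher (Mapk8ip1, the kinesin-1 adaptor, 1.80) and 1 lower (Map7d3, -2.56). Cytoplasmic dynein, which moves the opposite way on microtubules, had 2 of 25 genes higher (Dynll2 and Dynlrb1) and none lower, and tubulins had 3 of 16 higher (Tuba1c, Tubb2b and Tubb6) and none lower. Intraflagellar transport, the cargo system of Kif3a in cilia, had 5 of 21 higher, Ift46 (0.99) and Wdr34 (1.25) with the smallest adjusted p, and 1 lower, Ift80 (-0.90). The medians of these lists were 0.25, 0.47, 0.88 and 0.66 on the log2 scale. Each of Mapk8ip1, Dynll2, Dynlrb1, Tuba1c, Tubb6, Ift46, Wdr34 and Ift80 lost its call in at least 1 fit that left out a library, with highest adjusted p of 0.0673 to 0.183.

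Within the tumours, each kinesin was set against Mki67, a marker of proliferating cells. The level of Mki67 was lowest in tumour 21 (202 CPM) and highest in tumours 20 (1046 CPM) and 24 (1821 CPM). Over the 9 tumours Pearson's r of log2 CPM with Mki67 was 0.50 to 0.94 in the 11 mitotic members (median 0.88) and -0.43 to 0.30 in the 13 transport members (median -0.14). For Kif11 r was 0.94 and Spearman's rho 0.80 (exact permutation p of 0.000637 and 0.0138), for Kif20a 0.93 and 0.82 (0.000449 and 0.0108), and for Kif5b -0.14 and 0.02 (0.719 and 0.982), all two-sided. No member passed after adjustment over 21455 genes (smallest adjusted permutation p among members 0.213), nor did any gene, 0.0% of them. At an unadjusted exact permutation p under 0.05, 10 of 11 mitotic members had a positive r, against 5.07% of all genes, and 0 of 13 transport members passed in either direction. Kif18b was the mitotic member that did not (r = 0.50, exact permutation p = 0.172), and Kif26b, of the other class, had a negative r of -0.71 (exact permutation p = 0.0332, against 5.63% of all genes with negative r). All values of a library share its scaling.

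Without tumours 20 and 24, the farthest from the median of Mki67, r was 0.74 for Kif11, 0.84 for Kif20a and 0.22 for Kif5b, and the median r was 0.66 over the mitotic and -0.12 over the transport members. Kif20a and Kif22 (0.84 and 0.89) then had an exact permutation p under 0.05 (0.0260 and 0.0198). Of all 21455 genes, 796 did, in either direction. Kif11, Kif14, Kif4, Kif2c and Kif15 kept an r of 0.65 to 0.74 but missed that threshold over 7 tumours (exact permutation p of 0.0581 to 0.124). For Kif18a, Kif23 and Kif20b r was 0.27, 0.31 and 0.35 (exact permutation p of 0.435 to 0.507). Whether these differ from the r of the other members was not tested. Kif18b, which had not passed with all tumours either, had an r of -0.07. With Top2a, a topoisomerase gene of dividing cells, in place of Mki67, 7 of 11 mitotic members had an unadjusted exact permutation p under 0.05 and the median r was 0.68, while all genes gave 2.34%.

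**Figure D5:**
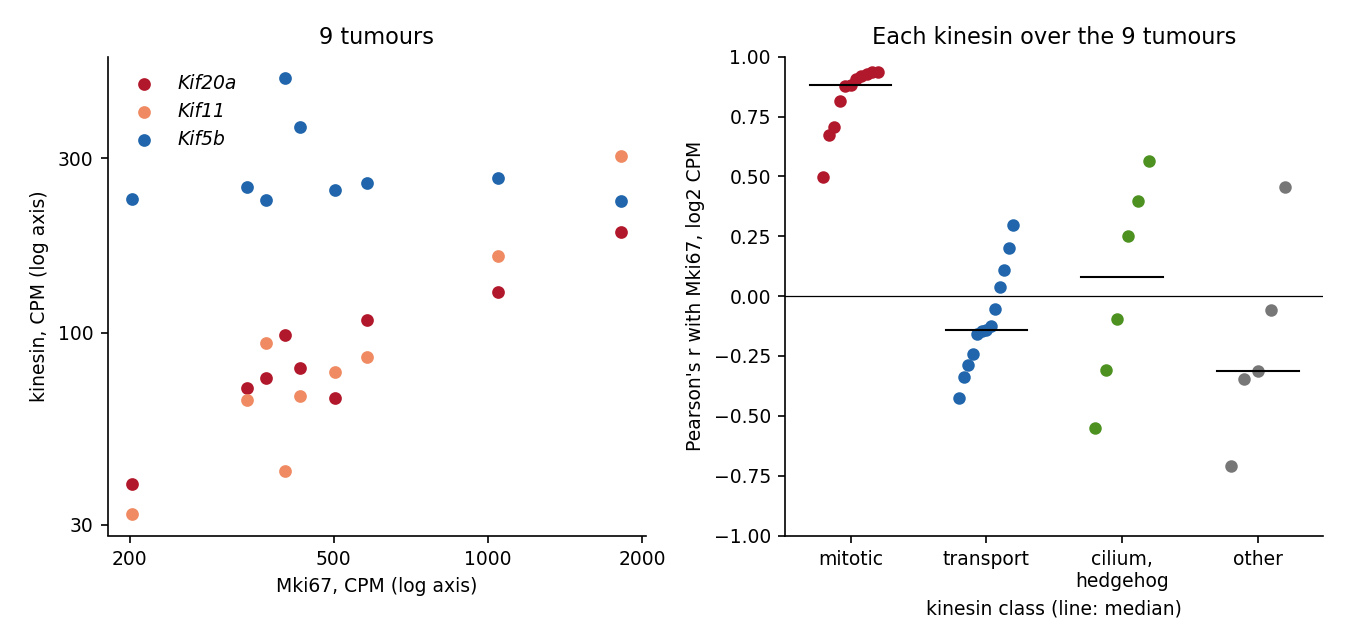
Left, Kif20a, Kif11 and Kif5b against Mki67 in 9 tumours, in CPM on log axes, and right, Pearson's r with Mki67 over the 9 tumours for each of 35 kinesins by class, with class medians as lines. Kif20a and Kif11 rise towards tumour 24, at 1821 CPM of Mki67, while Kif5b stays between 229 and 495 CPM, and the class medians are 0.88 for mitotic and -0.14 for transport members.

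The spread among tumours varied more within each class than between class medians. The SD of log2 CPM over the 9 tumours had a median of 0.78 in mitotic and 0.77 in transport members, beside 0.76 over all genes tested. Within the transport class it ran from 0.28 (Kif3a), 0.30 (Kif3b) and 0.31 (Kif1b) to 1.37 (Kif5c), and within the mitotic class from 0.65 (Kif20a) to 1.26 (Kif22). The exons of 4 members overlap a gene on the same strand and those of 11 a gene on the other strand, among them Kif20a with Cdc23, Kif18a with Mettl15 and Kif7 with Ticrr, and since the strand setting of the counting is not given, reads of such pairs may not be fully told apart.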

How the data were processed

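Libraries of total RNA were made with a stranded TruSeq protocol, per the labels. The authors deposited raw counts per gene symbol, whole numbers without normalization, with 5 summary rows per library that were kept out of totals and tests. Tools listed in the submitters' processing notes are HTSeq 0.11.0, TopHat2 2.1.1 and FastQC 0.11.8, with the build GRCm38. For the annotation and the strand setting the entry is: not given in the sources used here. Intervals and limits from counts cover counting error only.

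The main test was that of edgeR 4.0.16 in R 4.3.3 (filterByExpr, trimmed mean of M values, robust quasi-likelihood F test, group only) and DESeq2 1.42.0 and limma 3.58.1 were alternatives. Python 3.11.15 served for the rest. Calls required p under 0.05 after Benjamini-Hochberg adjustment over every gene tested. SE was obtained by dividing the size of the log2 fold change by the root of F. The steps were tested on simulated data. Single CPM carry no prior count, and log2 CPM a prior count of 2. Exonic lengths and positions came from GENCODE M21 (GRCm38), in which all 36 members matched by symbol. Correlations used all pairings of 9 tumours and were adjusted over all genes, not over the members as first planned. Members, classes and lists were chosen with earlier results of these data known. Every member was named, and from each partner list the 2 called genes of smallest adjusted p in each direction. Other names were given after their values were seen. Alternatives were other scalings, filters and tools, each library left out, a covariate, another assignment of classes and Top2a as marker. A list of nerve cell markers is not reported here.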

Additional observations from a re-analysis of the deposited data

Results flagged for a closer look

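Single tumours far from the others were looked for in 36 members with Dixon's test on log2 CPM over the 9 tumours, which marks about 1 in 20 groups (5%) by chance. It marked 5 members. Tumour 1 was apart in Kif1a at the high end (31.9 CPM, next 7.25 CPM in tumour 17) and in Kif21a at the low end (2.26 CPM, next 32.3 CPM in tumour 21). Tumour 4 was apart at the low end in Kif1b (106 CPM, next 162 CPM in tumour 17) and in Kif3a (19.2 CPM, next 29.7 CPM in tumour 14). Tumour 17 was apart at the high end in Kif16b (224 CPM, next 127 CPM in tumour 14). None of the 11 mitotic members was marked, which at 5% does not set that class apart. The share of all genes that this test marks is not given here, so the counts are not read as a trait of the family.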

How the results depend on the processing

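Under the alternatives, 661 of the log2 fold changes of single kinesins kept direction and side of the threshold, 39 lost and 16 gained the call, and 19 changed sign. The count of all genes called, 4346, was 7453 with DESeq2, 10634 with limma-voom, 658 with the covariate and 2005 to 5159 when 1 library was left out, lowest without an epithelium library. The 10 mitotic members called became 2 with the covariate and 5 to 11 when 1 library was left out, fewest without epithelium library 1 or 2. The 2 transport members called became 1 without a filter on low counts, with the covariate, under the other assignment of classes or without tumours 20 and 24 (the last chosen after seeing the data), 4 with limma-voom and 0 to 3 when 1 library was left out. The ratio of Kif11 to Kif5b kept its call throughout, and no correlation with Mki67 passed under any setting. Signs changed in members that were not called, apart from Kif13b (0.053 with the covariate). Kif13a was -0.076 with upper quartile scaling, -0.047 with 10 counts in 9 libraries, -0.31 with limma-voom, -0.11 without tumours 20 and 24 and -0.25 to 0.15 when 1 library was left out. Kif5b was -0.044 with upper quartile scaling, -0.00084 with 10 counts in 9 libraries and -0.075 to 0.11 when 1 library was left out, and Kif17 -0.12 to 0.63. Kif6 was -0.46 with limma-voom and -0.15 without tumours 20 and 24. With the covariate Kif1b was 0.64, Kif5a 1.45 and Kif9 0.29. The cause was not tested, except that leaving out libraries leaves fewer samples. Upper quartile scaling moved the median of all genes from 0.17 to 0.07, and limma-voom to -0.02. No paired analysis was possible because the groups share only the replicate number 1. Members under 2 CPM, such as Kif6, Kif17 and Kif28, are limited by depth.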
